A study of Mus musculus with 12 samples.

Results

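The genes described here are 49 mouse genes of mitosis, found by symbol among the 52636 genes counted in each library, and all 49 were among the 17970 genes tested. They fall into 9 steps of cell division: the spindle checkpoint, the kinetochore, the chromosomal passenger complex, mitotic kinases and cyclins, anaphase promotion, condensin and chromosome structure, the spindle, cytokinesis, and the transcription factors Foxm1 and Mybl2. The RNA came from 12 whole tumors of the 2153L line, which arose in the mammary gland of a genetically engineered mouse (GEM), is given as TNBC (triple-negative breast cancer) in the labels, and was grown as mammary transplants in female Balbc mice. The tumors had been transduced with P53ERTAM, a tamoxifen-inducible form of the tumor suppressor p53, or with an empty vector (EV). For 8 days mice were given combo or vehicle. Combo is ORIN1001 (150 mg/kg daily), which blocks the RNase activity of the stress sensor IRE1α, together with docetaxel, a drug that stabilises microtubules (20 mg/kg weekly). The 4 groups of 3 tumors each were P53ERTAM combo, P53ERTAM vehicle, EV combo and EV vehicle, and all 12 tumors came from the same transplanted line. The age of the mice, the promoter that drives P53ERTAM and which mice received tamoxifen are not given in the sources used here.

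A dividing cell enters mitosis when Cdk1 is activated by cyclins of the A and B type. Condensin compacts the chromosomes, kinetochores attach them to spindle microtubules, and the checkpoint kinases and Mad2l1 hold back Cdc20 and the anaphase-promoting complex until every kinetochore is attached. Release of the checkpoint frees separase (Espl1) from securin (Pttg1), sister chromatids part, and a contractile ring divides the cell. Most of these genes are transcribed late in the cell cycle by complexes that contain Foxm1 and Mybl2, and in tumor tissue their level is widely used as a measure of proliferation. Stabilised microtubules keep the spindle checkpoint active, and p53 is known to lower transcription of many mitotic genes by way of the kinase inhibitor p21, the product of Cdkn1a.

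Libraries held 13484873 to 24424964 counts, and the lowest count of any of the 49 genes in any library was 89 (Ndc80). As a check of the labels, Cdkn1a had 175, 199 and 167 CPM (counts scaled to a fixed library total with TMM factors) in P53ERTAM combo, 92.1, 157 and 117 CPM in P53ERTAM vehicle, 53.8, 22.2 and 25.2 CPM in EV combo, and 26.2, 45.1 and 26.8 CPM in EV vehicle tumors. Trp53, Esr1 and Mdm2 were the other check genes. Under vehicle, Trp53 averaged 51.4 CPM in P53ERTAM and 45.6 CPM in EV tumors and was not called by edgeR. Under combo it averaged 61.0 and 46.4 CPM. That call was lost without EV combo replicates 1 or 3 or any P53ERTAM combo replicate. Esr1 averaged 30.5 and 9.09 CPM under vehicle and 37.5 and 10.3 CPM under combo. Mdm2 averaged 92.4 and 67.3 CPM, then 97.9 and 70.1 CPM. The 3 EV combo libraries stood apart from the other 9. The noncoding gene Gm26917 took 10.7 to 11.1% of their counts, against 0.133 to 1.10% in the others, and protein-coding genes took 80.9 to 81.7%, against 86.7 to 95.8%. Every comparison below that uses the EV combo group holds that difference too. None of the 8 epithelial markers was at 0 in any library, and the lowest of them, Krt19, had 0.496 to 5.51 TPM. TPM are counts per exon length, scaled to a fixed library total without TMM factors. Nothing in the labels says that the tumors of a group came from separate animals, so the p-values below measure the spread between these samples, which may be technical.

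Promoters were searched on both strands for a pair of short sequences known from human and mouse genes of this class, the cell cycle genes homology region (CHR, TTTGAA) and the CCAAT box (CCAAT). RefSeq promoter windows (build GRCm38.p6, 250 bases before to 50 after the gene start) were matched for 40 of the 49 genes. Of these, 4 had 2 windows, and a match in either counted. A CHR match lay in 27 of the 40 (67.5%), against 18.5% of 17492 protein-coding genes. A CCAAT match lay in 29 (72.5%), against 42.3%, and both stood in 24 (60%), against 7.40%. The motifs overlapped each other in 1 member window. The genes without a window were Smc4, Tpx2, Cdc25c, Aurkb, Ccna2, Foxm1, Spc24, Incenp and Dlgap5. A match describes the letters and does not show a binding site. The 5 windows shown, 200 bases before to 25 after the gene start, belong to the genes with the smallest p for a difference between the vectors in the effect of combo. Capitals mark the matches, TTTGAA on the gene's own strand for the CHR and CCAAT or its reverse ATTGG for the CCAAT box. Mybl2, also among the 6 genes of smallest p, held neither motif in that window.

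Espl1 (chr15:102296093-102296317, GRCm38.p6, plus strand): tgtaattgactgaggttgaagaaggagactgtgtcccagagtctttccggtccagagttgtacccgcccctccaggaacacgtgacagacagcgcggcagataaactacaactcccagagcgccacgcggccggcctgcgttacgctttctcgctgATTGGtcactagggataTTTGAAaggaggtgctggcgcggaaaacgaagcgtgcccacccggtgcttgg
Cenpa (chr5:30666686-30666910, GRCm38.p6, plus strand): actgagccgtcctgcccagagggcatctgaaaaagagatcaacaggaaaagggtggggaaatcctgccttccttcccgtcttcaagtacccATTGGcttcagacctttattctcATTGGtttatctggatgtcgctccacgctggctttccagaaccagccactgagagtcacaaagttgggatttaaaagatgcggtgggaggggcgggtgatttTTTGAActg
Ncapd2 (chr6:125191562-125191786, GRCm38.p6, minus strand): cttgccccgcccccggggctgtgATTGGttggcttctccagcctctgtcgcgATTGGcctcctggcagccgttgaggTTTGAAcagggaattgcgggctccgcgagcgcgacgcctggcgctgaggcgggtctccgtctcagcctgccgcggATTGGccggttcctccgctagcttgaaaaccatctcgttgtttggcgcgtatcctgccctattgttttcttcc
Psrc1 (chr3:108383604-108383828, GRCm38.p6, plus strand): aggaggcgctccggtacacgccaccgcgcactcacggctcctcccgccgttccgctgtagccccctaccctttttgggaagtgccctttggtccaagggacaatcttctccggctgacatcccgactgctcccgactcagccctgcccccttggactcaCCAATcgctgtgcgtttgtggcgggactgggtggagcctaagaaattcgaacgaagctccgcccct
Cenpf (chr1:189688062-189688286, GRCm38.p6, minus strand): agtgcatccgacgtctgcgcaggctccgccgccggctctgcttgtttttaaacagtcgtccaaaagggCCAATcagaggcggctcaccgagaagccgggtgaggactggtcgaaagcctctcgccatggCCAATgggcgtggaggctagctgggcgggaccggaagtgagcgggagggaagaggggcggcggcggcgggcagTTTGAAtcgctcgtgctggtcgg

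In Cenpf the CHR began 3 bases after the gene start, with CCAAT boxes 71 and 132 bases before it. In Espl1 the CHR began 27 bases before the start, with a CCAAT box on the other strand at 44. Ncapd2 held 3 CCAAT boxes on the other strand, 48, 148 and 177 bases before the start, with its CHR between the nearest of them and the next. In Cenpa the CHR began 17 bases after the start, and CCAAT boxes on the other strand stood 86 and 109 bases before it. The Psrc1 window shown held a CCAAT box at 41 and no CHR. Genes with and without a CHR had much the same median log2 fold change, P53ERTAM over EV. Under vehicle it was -0.98 in the 27 genes that held one and -1.04 in the 13 that did not. Under combo it was -1.03 in the genes with a CHR and -0.92 in those without.

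The mitotic genes stood lower in P53ERTAM than in EV tumors under both treatments. They took 0.2908 to 0.2997% of all counts in the P53ERTAM combo libraries, 0.2927 to 0.4008% in P53ERTAM vehicle, 0.4875 to 0.5984% in EV combo and 0.553 to 0.6733% in EV vehicle. For 40 of the 49 genes, all 6 P53ERTAM libraries lay below all 6 EV libraries. The share of all genes with that separation was not counted, and the shares within each treatment are given below. The 9 others were Mad2l1, Ndc80, Spc24, Aurkb, Nek2, Ube2c, Smc2, Ect2 and Foxm1. In a bulk tumor, fewer dividing cells and less mitotic RNA per cell cannot be told apart.

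**Figure D1:**
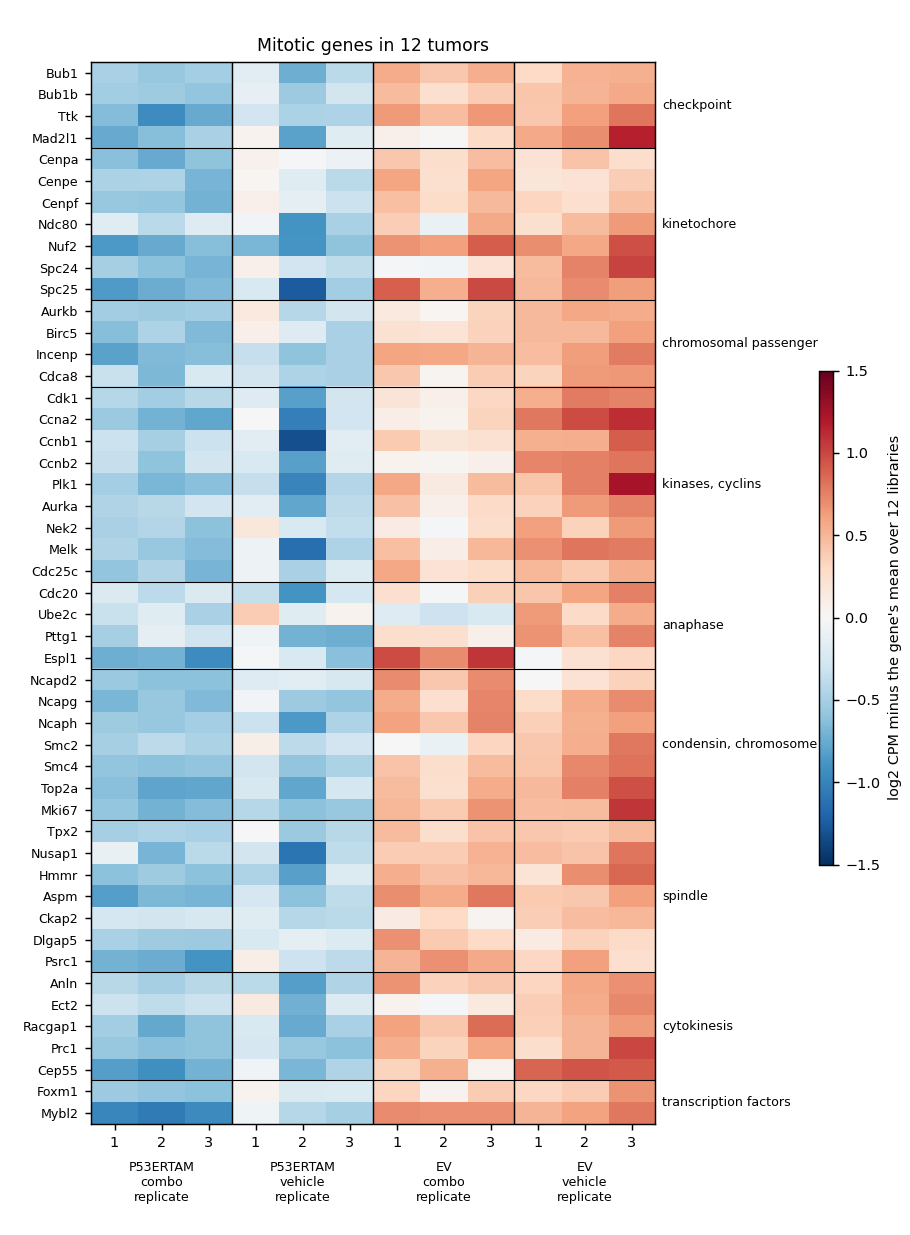
Heat map of the 49 mitotic genes (rows, by step) in the 12 libraries (columns, by group and replicate). Color gives log2 CPM minus the gene's own mean over all libraries, and the P53ERTAM columns are mostly below that mean while the EV columns are mostly above it.

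Single tumors moved up or down with nearly the whole set. Among P53ERTAM vehicle tumors, replicate 1 was the highest for 43 of the 49 genes and replicate 2 the lowest for 34. Among EV combo tumors replicate 2 was the lowest for 41. Among EV vehicle tumors replicate 3 was the highest for 40 and replicate 1 the lowest for 39. P53ERTAM vehicle replicate 2 also had the lowest protein-coding share of its group (86.7%) and the highest summed level of 8 fibroblast markers (1300 TPM, against 592 to 857 TPM in the other 5 P53ERTAM libraries). Most of that sum was collagen. Col1a1 had 928 TPM, against 345 to 490 TPM in the other 5, and Col1a2 (170 TPM) and Col3a1 (138 TPM) were also at their highest. Pdgfra (7.68 TPM) and Fap (2.21 TPM) were at their lowest there, and the remaining fibroblast markers lay within the range of the other 5. The part of that make-up in its low mitotic values was not tested.

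Under vehicle, every step of mitosis was lower in P53ERTAM tumors, which held 35.9% (Nuf2) to 80.1% (Cenpa) of the EV mean. By edgeR's quasi-likelihood F-test, 49 of the 49 genes were called lower at an adjusted p below 0.05 and 0 higher. Over all genes the shares called were 19.8% lower and 17.9% higher. The median log2 fold change was -0.95, against 0.0062 over all genes tested. The 2 groups of tumors did not overlap for 48 of the 49, against 24.1% of all genes on the lower side, and Ube2c was the exception.

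The kinetochore held both the largest and the smallest of these differences. Nuf2, a subunit of the NDC80 complex that grips microtubules, had 16.5, 14.4 and 17.4 CPM in P53ERTAM vehicle tumors, against 43.1, 39.7 and 51.8 CPM in EV vehicle tumors (log2 fold change -1.48, SE 0.141, edgeR adjusted p = 2.66e-05). Every P53ERTAM tumor was below every EV tumor by a wide margin. Its partners in that complex were also lower, Spc25 by -1.21, Spc24 by -0.95 and Ndc80 by -0.88 on the log2 scale. The NDC80 complex thus lay at the low end of the step, and the 3 centromere protein genes at the other: Cenpf, a kinetochore and nuclear matrix protein, had a log2 fold change of -0.46, Cenpe, the kinetochore motor, -0.43, and Cenpa, the histone variant that marks centromeres, -0.32. Cenpa had 119, 113 and 107 CPM in P53ERTAM vehicle tumors, against 133, 153 and 137 CPM in EV vehicle tumors. All 4 checkpoint genes were lower. Bub1 and Bub1b, kinases of the checkpoint, had log2 fold changes of -0.86 (SE 0.134, edgeR adjusted p = 0.000412) and -0.80 (SE 0.111, 0.000212), Ttk, the kinase that starts the signal, -1.02, and Mad2l1, which binds Cdc20, -1.10.

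All 9 kinases and cyclins were lower under vehicle, with a median log2 fold change of -1.12, the furthest from 0 of the 9 steps. Cdk1 had 78.0, 50.9 and 74.0 CPM in P53ERTAM vehicle tumors, against 130, 153 and 150 CPM in EV vehicle tumors (-1.09, SE 0.142, edgeR adjusted p = 0.00015). Its cyclin Ccnb1 had 53.7, 23.9 and 53.5 CPM in P53ERTAM vehicle tumors, against 86.5, 87.6 and 112 CPM in EV vehicle tumors (-1.12, SE 0.234, edgeR adjusted p = 0.00288). Neither gene's groups overlapped, and in both the lowest tumor was P53ERTAM vehicle replicate 2. Plk1, the polo kinase of mitotic entry and exit, was the lowest of the step (-1.39), and Nek2, a centrosome kinase, the least changed (-0.66). In the chromosomal passenger complex, which corrects faulty attachments, log2 fold changes were between -1.11 for its scaffold Incenp and -0.70 for its kinase Aurkb.

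Chromosome structure, anaphase and cytokinesis genes followed. Mki67, the Ki-67 protein that coats mitotic chromosomes and the usual proliferation marker, had 242, 212 and 219 CPM in P53ERTAM vehicle tumors, against 449, 454 and 685 CPM in EV vehicle tumors (log2 fold change -1.24, SE 0.149, edgeR adjusted p = 9.52e-05). The groups were far apart, and EV vehicle replicate 3 was the highest of the 12 libraries. Top2a, the topoisomerase that untangles chromatids, had a log2 fold change of -1.16 (SE 0.157). The condensin ATPase Smc4 was at -1.11, Ncaph at -1.04, Ncapg at -0.89, Smc2 at -0.77 and Ncapd2 at -0.39. Among the 4 anaphase genes securin (Pttg1) was at -1.09 and Cdc20 at -1.07, while separase (Espl1) was at -0.45 and Ube2c, the ubiquitin-conjugating enzyme of the anaphase-promoting complex, at -0.39. The 5 cytokinesis genes were between -1.28 for Cep55, which acts at the final cut, and -0.78 for Ect2, which activates RhoA at the cleavage furrow, with the spindle bundler Prc1 at -1.09 and the ring scaffold Anln at -1.08. The 7 spindle genes were between -1.11 (Nusap1) and -0.44 (Dlgap5). Mybl2 was at -0.95 and Foxm1 at -0.58.

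Calls of 7 genes under vehicle were lost when single tumors were left out of the edgeR fit. Cenpa lost its call without EV vehicle replicate 2 (adjusted p = 0.117) or P53ERTAM vehicle replicate 3 (0.0562), and Cenpe without EV vehicle replicate 3 (0.0841) or P53ERTAM vehicle replicates 2 (0.0552) and 3 (0.0775). Ube2c lost it without EV vehicle replicates 1 (0.151) or 3 (0.120) or P53ERTAM vehicle replicates 2 (0.171) or 3 (0.103), and Espl1 without EV vehicle replicates 2 (0.0936) or 3 (0.117) or P53ERTAM vehicle replicates 2 (0.0642) or 3 (0.113). Ncapd2 lost it without EV vehicle replicates 2 (0.0526) or 3 (0.0790), and Dlgap5 (0.0617) and Psrc1 (0.0507) without EV vehicle replicate 2. The other 42 kept theirs in every alternative tried other than a test against a fold of 1.5, under which 28 of the 49 were called. Markers of other compartments moved in the same comparison: 6 of 8 epithelial markers were lower (median log2 fold change -0.95), while 5 of 8 fibroblast markers (1.19) and 5 of 7 endothelial markers (1.43) were higher. The epithelial markers summed to 1970 to 2940 TPM in P53ERTAM vehicle tumors, against 4230 to 5590 TPM in EV vehicle tumors, and the fibroblast markers to 610 to 1300 TPM, against 206 to 218 TPM. The endothelial markers summed to 79.1 to 131 TPM in P53ERTAM vehicle, against 24.4 to 45.6 TPM in EV vehicle tumors. Both B and plasma cell markers tested, Cd79b (-4.26) and Jchain (-5.12), were lower, in groups that overlapped, and of the EV vehicle tumors replicate 2 held a sum of 263 TPM over that list and the other 2 held 4.78 and 2.29 TPM. The part of these markers in the lower mitotic values was not tested.

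**Figure D2:**
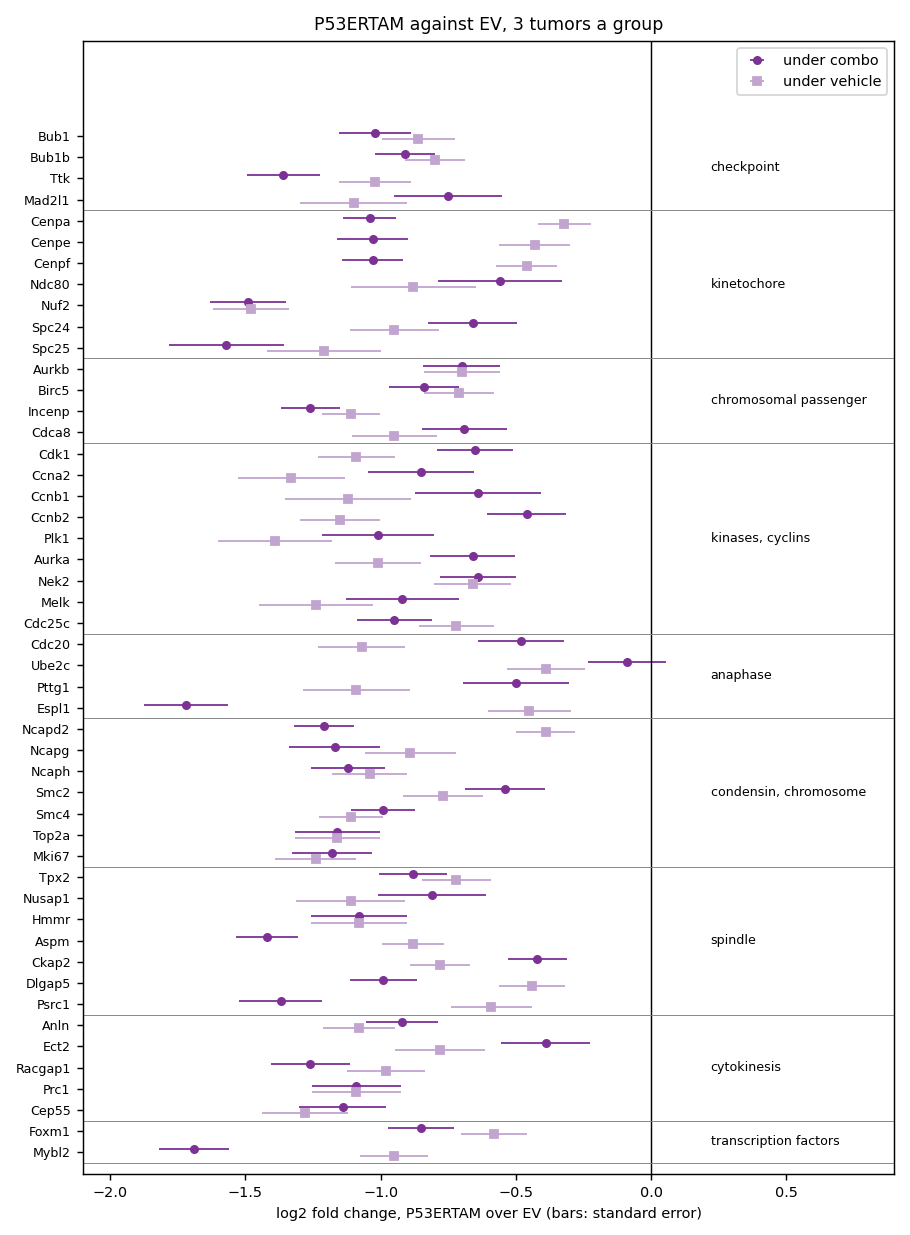
Log2 fold change of P53ERTAM over EV for each of the 49 mitotic genes, under combo (dark circles) and under vehicle (pale squares), with bars of 1 standard error and 3 tumors a group. All points lie left of 0, between -1.72 (Espl1 under combo) and -0.089 (Ube2c under combo).

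Under combo, the same set was again lower in P53ERTAM tumors. EdgeR called 45 of the 49 genes lower and 0 higher, against 22% lower and 22.1% higher over all genes. The median log2 fold change was -0.95, against 0.062 over all genes tested. The groups did not overlap for 48 of the 49, against 29.4% of all genes on the lower side, and Ube2c was again the exception. The 4 genes not called were Ndc80 (-0.56, edgeR adjusted p = 0.0608), Pttg1 (-0.50, 0.0526), Ect2 (-0.39, 0.0665) and Ube2c (-0.089, 0.640).

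Separase and Mybl2 showed the widest gaps between the vectors under combo. Espl1 had 42.7, 43.2 and 36.8 CPM in P53ERTAM combo tumors, against 139, 116 and 149 CPM in EV combo tumors (log2 fold change -1.72, SE 0.156, edgeR adjusted p = 6.72e-06). Mybl2, the B-Myb factor that switches on mitotic genes, had 18.2, 17.2 and 18.4 CPM in P53ERTAM combo tumors, against 58.3, 57.5 and 57.3 CPM in EV combo tumors (-1.69, SE 0.130, edgeR adjusted p = 2.02e-06). Within each group the 3 tumors were close together and far from the other group, and the P53ERTAM mean was 30.5% of the EV mean for Espl1 and 31.0% for Mybl2. Foxm1, the forkhead factor of the same program, had 113, 109 and 107 CPM in P53ERTAM combo tumors, against 206, 170 and 215 CPM in EV combo tumors (-0.85, SE 0.123, edgeR adjusted p = 0.000161). These groups did not overlap either.

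At the kinetochore, Spc25 (-1.57) and Nuf2 (-1.49) were the lowest under combo, Cenpa was at -1.04 (SE 0.0975, edgeR adjusted p = 7.99e-06), and Cenpe and Cenpf were at -1.03. In condensin Ncapd2 had 180, 174 and 174 CPM in P53ERTAM combo tumors, against 434, 351 and 434 CPM in EV combo tumors (-1.21, SE 0.112, edgeR adjusted p = 7.23e-06). The 2 groups were far apart, and Ncapg (-1.17), Ncaph (-1.12) and Smc4 (-0.99) were lower by similar amounts, with Smc2 at -0.54. Mki67 had 218, 199 and 207 CPM in P53ERTAM combo tumors, against 460, 428 and 520 CPM in EV combo tumors (-1.18, SE 0.149, edgeR adjusted p = 6.15e-05), again with no overlap, and Top2a was at -1.16. Of the spindle genes, Aspm, which organises spindle poles, was the lowest (-1.42, SE 0.115, edgeR adjusted p = 2.77e-06) and Ckap2 the least changed (-0.42). The passenger genes were between Incenp (-1.26) and Cdca8 (-0.69), with Aurkb at -0.70. Checkpoint genes were between Ttk (-1.36) and Mad2l1 (-0.75), with Bub1 at -1.02 and Bub1b at -0.91.

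The kinases and cyclins had a median log2 fold change of -0.66 under combo, with Plk1 at -1.01, Cdk1 at -0.65 (SE 0.141, edgeR adjusted p = 0.0025), Ccnb1 at -0.64 (0.0389) and Ccnb2 at -0.46 (0.0213). Cytokinesis genes were between Racgap1 (-1.26) and Ect2, with Prc1 at -1.09 and Anln at -0.92, and Cdc20 was at -0.48 (edgeR adjusted p = 0.028). Single tumors decided some of these calls. The call of Ccnb1 was lost without any 1 of the 6 tumors (adjusted p = 0.0644 to 0.113). That of Cdc20 was lost without EV combo replicates 1 (0.0748) or 3 (0.105) or any P53ERTAM combo replicate (0.0610 to 0.0989). Ccnb2 lost it without EV combo replicates 1 (0.0502) or 3 (0.0542) or P53ERTAM combo replicate 2 (0.0933), and Smc2 without EV combo replicate 3 (0.0552). In the other direction, Ndc80 was called without EV combo replicate 2 (0.0294). Scaled and tested on protein-coding genes alone, 48 of the 49 were called lower with a median of -1.06.

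Markers of several cell types differed between the vectors under combo. Macrophage markers were higher for 6 of 8, with summed levels of 2030 to 2750 TPM in P53ERTAM combo tumors, against 620 to 837 TPM in EV combo tumors. T cell markers were higher for 5 of 7 (median log2 fold change 1.94) and summed to 29.3 to 36.4 TPM, against 3.59 to 9.45 TPM. Endothelial markers were higher for 4 of 7 (0.95) and summed to 96.6 to 154 TPM, against 51.5 to 100 TPM. Of the 8 epithelial markers the basal keratins Krt5 (-5.35) and Krt14 (-4.0) were lower and Cldn4 (0.80) was higher, each without overlap. The epithelial sum was 2930 to 3750 TPM in P53ERTAM combo, against 3050 to 3980 TPM in EV combo tumors. Of the 3 erythroid markers tested 2 were lower. The part of these markers in the mitotic values was not tested.

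In EV tumors, mitotic genes were not called for a combo effect more often than genes at large. Cyclins A2 and B2 and Cdk1 were among those called lower, and separase and the condensin subunit Ncapd2 were the 2 called higher. EdgeR called 11 of the 49 lower and 2 higher, against 21.1% lower and 18.8% higher over all genes. The share of members called lower was thus near that of all genes, and the share called higher was below it. The tumors of the 2 groups did not overlap for 17 genes on the lower side and 2 on the higher, against 26.9% and 23.6% of all genes. The median log2 fold change was -0.15, against -0.067 over all genes and -0.13 over protein-coding genes.

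The lower genes included 4 kinases and cyclins. Ccna2, the cyclin of S phase and early mitosis, had 224, 218 and 264 CPM in EV combo tumors, against 362, 413 and 451 CPM in EV vehicle tumors (log2 fold change -0.80, SE 0.196, edgeR adjusted p = 0.00665). Ccnb2, a B-type cyclin, had 54.5, 54.4 and 55.6 CPM in EV combo tumors, against 87.9, 88.8 and 91.6 CPM in EV vehicle tumors (-0.71, SE 0.145, edgeR adjusted p = 0.00232). Cdk1 had 102, 94.5 and 111 CPM in EV combo tumors, against 130, 153 and 150 CPM in EV vehicle tumors (-0.49, SE 0.141, edgeR adjusted p = 0.0141). In none of these 3 did the groups overlap. Ube2c was lower by a log2 fold change of -0.74 (SE 0.145, edgeR adjusted p = 0.00171). On the same scale Mad2l1 fell by 0.70, Spc24 by 0.70 (0.00467), Cep55 by 0.59, Smc2 and Ect2 by 0.50, Nek2 by 0.41 and Ckap2, a spindle protein, by 0.29.

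Espl1 had 139, 116 and 149 CPM in EV combo tumors, against 69.7, 82.8 and 87.8 CPM in EV vehicle tumors (log2 fold change 0.75, SE 0.153, edgeR adjusted p = 0.00219). Ncapd2 had 434, 351 and 434 CPM in EV combo tumors, against 264, 308 and 338 CPM in EV vehicle tumors (0.42, SE 0.110, edgeR adjusted p = 0.0087). Every EV combo tumor was above every EV vehicle tumor for these 2 genes. Other log2 fold changes at the edges of their steps, none of them called, were 0.049 for Bub1, 0.23 for Cenpe, 0.21 for Aspm, 0.12 for Racgap1, 0.055 for Mybl2, -0.20 for Foxm1, -0.071 for Incenp, -0.36 for Aurkb and -0.11 for Cdc25c, the phosphatase that activates Cdk1. Bub1b was at -0.14, Ndc80 at -0.15, Mki67 at -0.17, Top2a at -0.32, Ccnb1 at -0.40, Cdc20 at -0.39, Pttg1 at -0.43, Prc1 at -0.13 and Anln at -0.052.

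Without EV vehicle replicate 3, 5 of the 49 were called lower, and 7 without EV combo replicate 1 or 2. Over all genes these fits called 3065, 2948 and 3214 lower, against 3783 in the main fit. Among the single genes Mad2l1 lost its call without EV vehicle replicate 3 (edgeR adjusted p = 0.0721). Cdk1 lost it without EV vehicle replicates 2 (0.0609) or 3 (0.0503) or EV combo replicate 2 (0.0542). Nek2, Smc2, Ckap2 and Ect2 lost theirs without 3 to 5 of the 6 tumors, at adjusted p between 0.0595 and 0.169. Scaled on protein-coding genes alone, 4 were called higher, Aspm and Dlgap5 with them, and 7 lower, with a median of -0.024. Epithelial markers were lower for 3 of 8 and summed to 3050 to 3980 TPM in EV combo, against 4230 to 5590 TPM in EV vehicle tumors. Fibroblast markers were higher for 6 of 8 and summed to 442 to 872 TPM, against 206 to 218 TPM. Endothelial markers were higher for 3 of 7 (median log2 fold change 0.80), T cell markers lower for 2 of 7 (-1.79), and Jchain was lower (-6.63). EV vehicle replicate 2 was the highest tumor for the T cell sum and for Jchain. Jchain had 2.27, 119 and 1.25 CPM in EV vehicle tumors, against 0.317, 0.722 and 0.228 CPM in EV combo tumors. T cell sums overlapped, at 3.59 to 9.45 TPM in EV combo, against 4.72 TPM in EV vehicle replicate 3. The part of these markers in the mitotic values was not tested.

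**Figure D3:**
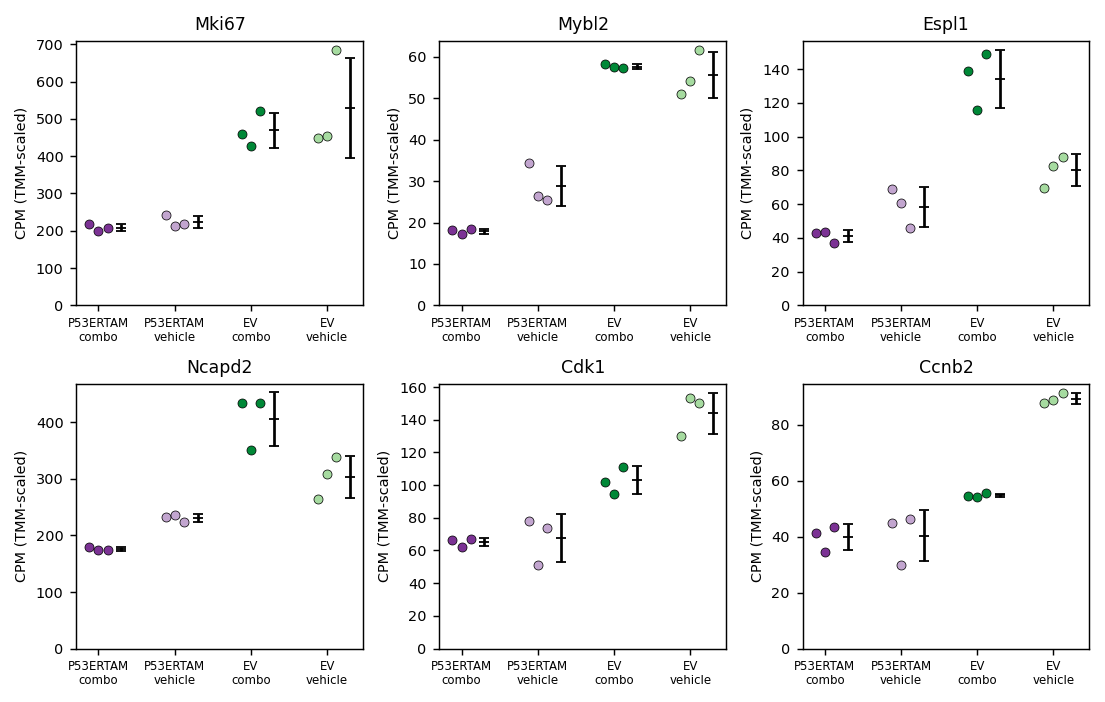
CPM of 6 mitotic genes in each tumor, by group, with a bar for the mean and 1 SD (n = 3). Mki67 and Mybl2 differ between vectors at either treatment, Espl1 and Ncapd2 are highest in EV combo, and Cdk1 and Ccnb2 are highest in EV vehicle.

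In P53ERTAM tumors, combo lowered both transcription factors, 2 centromere genes and a spindle gene, and raised none of the 49. EdgeR called 5 of the 49 lower and 0 higher, against 2.98% lower and 3.3% higher over all genes. The median log2 fold change was -0.22, against 0.005 over all genes tested, and the groups did not overlap on the lower side for 18 of the 49, against 15.4% of all genes.

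Mybl2 had 18.2, 17.2 and 18.4 CPM in P53ERTAM combo tumors, against 34.3, 26.5 and 25.4 CPM in P53ERTAM vehicle tumors (-0.68, SE 0.128, edgeR adjusted p = 0.0142). Cenpa had 73.6, 67.5 and 75.2 CPM in P53ERTAM combo tumors, against 119, 113 and 107 CPM in P53ERTAM vehicle tumors (-0.65, SE 0.097, edgeR adjusted p = 0.00556). The groups did not overlap for either gene. Psrc1, a microtubule-binding spindle protein, was at -0.60 (0.0371), Cenpf at -0.49 (0.0257) and Foxm1 at -0.47 (0.0407), also without overlap. Macrophage markers were higher for 7 of 8 in the same comparison and summed to 2030 to 2750 TPM in P53ERTAM combo, against 661 to 890 TPM in P53ERTAM vehicle tumors, and none was at 0 in these libraries. All 3 erythroid markers tested were lower (median log2 fold change -4.86), with sums of 0.619 to 1.05 TPM in P53ERTAM combo, against 21.2 to 30.4 TPM in P53ERTAM vehicle tumors. The basal keratins Krt14 (-2.13, edgeR adjusted p = 0.00417) and Krt5 (-2.40, 0.0468) were lower too, while the other 6 epithelial markers were not called. The part of these markers in the mitotic values was not tested.

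Single tumors decided most of these calls. Only that of Cenpa was kept in all alternatives other than the test against a fold of 1.5. Mybl2 lost its call without P53ERTAM vehicle replicate 1 (edgeR adjusted p = 0.0635) or P53ERTAM combo replicates 1 (0.0738) or 3 (0.0724). Foxm1, Cenpf and Psrc1 lost theirs without P53ERTAM vehicle replicates 1 or 2 or any P53ERTAM combo replicate (0.0585 to 0.174). The count of genes called lower was 1 without P53ERTAM vehicle replicate 1 or P53ERTAM combo replicates 1 or 3, 2 without P53ERTAM vehicle replicate 2 or P53ERTAM combo replicate 2, and 10 without P53ERTAM vehicle replicate 3. DESeq2 called 9, and voom with quality weights 22. Calls over all genes moved too: 536 were lower in the main fit, 1204 with DESeq2 and 1887 with voom. They numbered 1146 without P53ERTAM vehicle replicate 3, and 14 to 43 in the fits that called 1 mitotic gene. The median was -0.073 without P53ERTAM vehicle replicate 1, the tumor that was highest for most of the set. Log2 fold changes of genes at the edges of their steps, none called, were 0.17 for Ndc80, 0.21 for Cdc20, 0.16 for Pttg1, 0.11 for Anln, 0.15 for Nusap1, 0.072 for Ccnb1 and Ckap2, -0.52 for Espl1, -0.39 for Ncapd2 and Nek2, -0.0023 for Ncaph, -0.40 for Birc5, the survivin subunit of the passenger complex, -0.37 for Ttk and -0.45 for Cep55. Mki67 (-0.11), Bub1 (-0.11), Cdk1 (-0.054) and Top2a (-0.33) were not called either, and Mki67 had overlapping ranges of 199 to 218 CPM in P53ERTAM combo and 212 to 242 CPM in P53ERTAM vehicle tumors.

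The response to combo was then compared between the vectors, as the combo effect in P53ERTAM minus that in EV tumors. Separase, Ncapd2, Mybl2 and genes of the centromere and spindle had a lower combo effect in P53ERTAM tumors, and the cyclin Ccnb2 a higher one. EdgeR called 9 of the 49 lower for this interaction and 1 higher, against 17.2% lower and 18.8% higher over all genes. The share of members called lower was thus near that of all genes, and the share called higher was below it. The median was -0.0011, against 0.13 over all genes tested. Espl1 differed the most (log2 difference -1.26, SE 0.217, edgeR adjusted p = 0.00114), at -0.52 in P53ERTAM and 0.75 in EV tumors. Ncapd2 was next (-0.82, SE 0.156, edgeR adjusted p = 0.00194), at -0.39 in P53ERTAM and 0.42 in EV tumors. Psrc1 (-0.78, SE 0.213), Mybl2 (-0.74, SE 0.179) and Cenpa (-0.72, SE 0.137) had combo effects of -0.60, -0.68 and -0.65 in P53ERTAM tumors, against 0.18, 0.055 and 0.072 in EV tumors. Cenpe (-0.60), Cenpf (-0.56), Dlgap5 (-0.55) and Aspm (-0.54) completed the 9. Ccnb2 differed the other way (0.69, SE 0.206, edgeR adjusted p = 0.0201), at -0.019 in P53ERTAM and -0.71 in EV tumors.

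**Figure D4:**
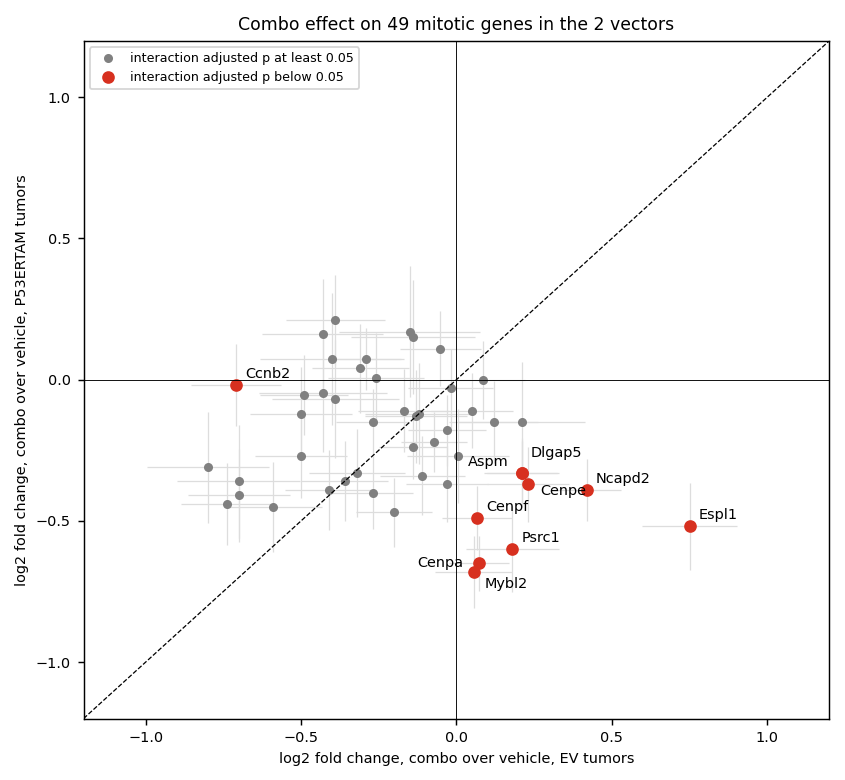
Log2 fold change of combo over vehicle for each of the 49 mitotic genes in P53ERTAM tumors (vertical axis) and in EV tumors (horizontal axis), with bars of 1 standard error. Red points are the 10 genes called for the interaction. Below the dashed line of equality lie 9 of them, and Ccnb2 lies above it.

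The kinases and cyclins leaned upward in this difference (median 0.39, 8 of 9 positive) with only Ccnb2 called, while the kinetochore genes had a median of -0.36 with 3 of 7 called lower. Among uncalled genes, log2 differences were 0.60 for Cdc20 (edgeR adjusted p = 0.0546), 0.59 for Pttg1, 0.48 for Ccnb1 and Ccna2, 0.44 for Cdk1, 0.063 for Mki67, -0.27 for Foxm1 and -0.34 for Ttk. Calls of Espl1, Cenpa, Ncapd2, Mybl2 and Psrc1 were kept in all alternatives other than the test against a fold of 1.5. Cenpe lost its call without EV combo replicates 1 (adjusted p = 0.0631) or 3 (0.0581), P53ERTAM vehicle replicate 1 (0.0590) or P53ERTAM combo replicate 3 (0.0635). Dlgap5 lost it without EV vehicle replicate 1 (0.0542), EV combo replicate 1 (0.0761) or P53ERTAM combo replicate 3 (0.0557). Aspm lost it without P53ERTAM combo replicate 1 (0.0506), and Ccnb2 without P53ERTAM combo replicates 1 (0.0553) or 3 (0.0639). In the opposite sense, Cdc20 was called without EV vehicle replicate 1 (0.0453), EV combo replicate 3 (0.0499) or P53ERTAM vehicle replicate 3 (0.0284), and Pttg1 (0.0248) and Ect2 (0.0495) without P53ERTAM vehicle replicate 1. Scaled on protein-coding genes alone the median was -0.18, with 10 lower and 0 higher.

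The combo effect on the mitotic genes in EV tumors went in part along with the length of their exons. Summed exon lengths were 1531 bases (Ccnb2) to 15433 bases (Cenpf). Across the 49 genes Spearman's rho of length with the combo log2 fold change was 0.46 in EV and -0.26 in P53ERTAM tumors, against 0.34 and -0.18 across 13911 protein-coding genes. With the interaction it was -0.49, against -0.36. These are correlations across genes that share the same 12 libraries and are given as a description. The 24 shorter genes, 1531 to 4516 bases, had a median combo effect of -0.34 in EV tumors, and 4 were above 0. The 24 longer ones, 4677 to 15433 bases, had a median of -0.042, and 9 were above 0. When the trend of each library over length was removed, the interaction was called for 6 genes, all lower, and the calls of Cenpf (adjusted p = 0.413), Aspm (0.223), Cenpe (0.0752) and Ccnb2 (0.068) were lost. After that step 49 of the 49 genes were called lower in P53ERTAM than in EV tumors under vehicle and 47 under combo.

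**Figure D5:**
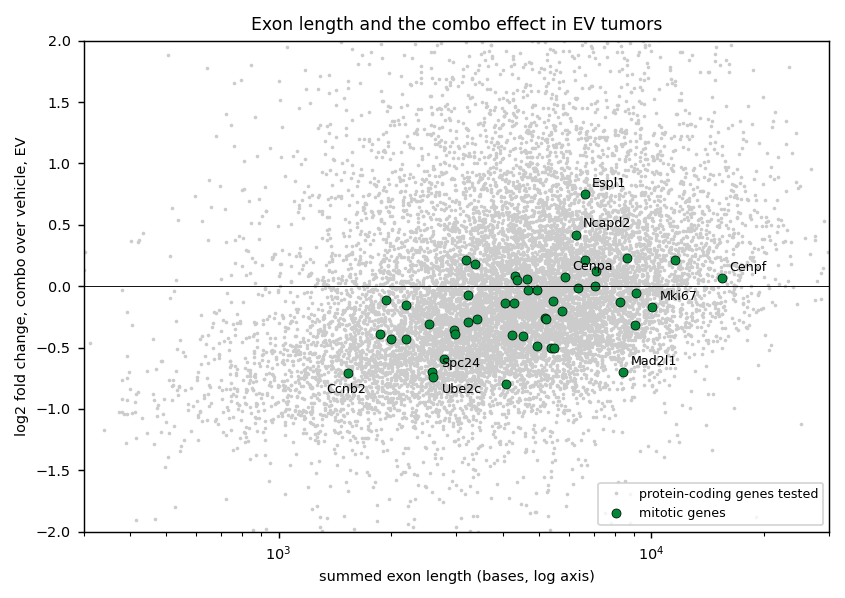
Log2 fold change of combo over vehicle in EV tumors against summed exon length (log axis), for the 49 mitotic genes (green) and the protein-coding genes tested (grey). Of the 24 shorter genes 4 lie above 0, and of the 24 longer ones 9. Ccnb2, Ube2c and Spc24 are short and lie below 0, as does the long Mad2l1 (8390 bases, -0.70). Espl1 and Ncapd2, the only 2 called higher, are among the longer ones. Grey points beyond the axes are not drawn.

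Per length, the mitotic genes ranged over more than an order of magnitude within a group. In EV vehicle tumors the highest TPM were those of Top2a (346 ± 57.2 TPM, SD, n = 3), Ccna2 (314 ± 35.1), Smc4 (183 ± 26.7) and Ccnb2 (183 ± 4.28), and the lowest those of Dlgap5 (18.6 ± 1.69) and Hmmr (21.2 ± 4.77), a spindle assembly factor. Smc4 and Ccnb2 did not differ beyond their spread, nor did Dlgap5 and Hmmr. Subunits of condensin I had unequal levels. Ncapd2 had 94.9 ± 1.65 TPM in P53ERTAM combo, 112 ± 10.8 TPM in P53ERTAM vehicle, 230 ± 28.0 TPM in EV combo and 152 ± 19.2 TPM in EV vehicle tumors, while its partner Ncapg had 16.3 ± 1.01, 17.9 ± 5.35, 38.5 ± 6.62 and 33.9 ± 5.19 TPM in those groups. In EV vehicle tumors Ncapd2 was thus several times above Ncapg, beyond the spread of either, and Smc2 (68.5 ± 9.52 TPM) and Ncaph (59.4 ± 5.71 TPM) lay between them and overlapped. The 4 NDC80 complex genes were closer together in EV vehicle tumors, with Spc24 at 48.1 ± 9.02 TPM, Spc25 at 27.6 ± 2.46, Ndc80 at 23.8 ± 3.29 and Nuf2 at 22.2 ± 2.93, and each of the last 3 overlapped its neighbour within 1 SD. TPM rests on the deposited exon length of the whole gene, so a gene expressed from short transcripts is set too low.

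Other genes of the same machinery were read from lists outside the 49. Their counts stand against 19.8% of all genes called lower under vehicle and 22% under combo, and higher against 17.9% and 22.1%. Of 27 further checkpoint and kinetochore genes, 18 were lower in P53ERTAM than in EV tumors under vehicle and 20 under combo, with 0 higher (medians -0.65 and -0.77). They included Zwilch, of the complex that recruits dynein to kinetochores (-1.06 under vehicle, -1.36 under combo), the shugoshin gene Sgo2a (-1.18 and -0.89), the kinetochore scaffold Knl1 (-0.56 and -1.43) and Mad1l1, which carries Mad2l1 to kinetochores (-0.52 and -1.46). Of 12 condensin II and cohesin genes, 7 were lower under either treatment and 0 higher, among them the cohesin subunits Smc1a (-0.99 and -1.21) and Stag2 (-1.04 and -0.67) and the condensin II subunits Ncapg2 (-1.19 and -0.78) and Ncapd3 (-0.74 and -0.86). Of 15 genes for subunits and inhibitors of the anaphase-promoting complex, 8 were lower under vehicle and 7 under combo, with 0 higher, among them the inhibitor Fbxo5 (-1.18 and -0.90) and the subunit Anapc4 (-0.64 and -0.84). Of 10 regulators of mitotic entry, 7 were lower under vehicle and 8 under combo, with 0 and 1 higher. The Cdk1-inhibiting kinase Pkmyt1 was at -0.63 under vehicle and -1.30 under combo, and the phosphatase Cdc25a at -0.54 and -0.84.

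Among these further genes Mad1l1 had 45.8, 46.4 and 50.7 CPM in EV combo tumors, against 23.9, 27.1 and 23.4 CPM in EV vehicle tumors (0.94, SE 0.116, edgeR adjusted p = 0.000156), while P53ERTAM combo and P53ERTAM vehicle tumors both averaged 17.4 CPM. Its interaction was -0.94 (SE 0.165, edgeR adjusted p = 0.00126). Knl1 rose in EV (0.42) and fell in P53ERTAM tumors (-0.44, edgeR adjusted p = 0.0478). In P53ERTAM tumors combo also lowered Cdc25b (-0.61), Ccnf (-0.58) and Cdc25a (-0.49), and Cdc25b was also lower with combo in EV tumors (-0.40). Of 28 DNA replication genes, the S-phase counterpart of this set, 28 were lower in P53ERTAM tumors under vehicle and 22 under combo (medians -1.09 and -0.74), Pola1 of the primase complex among them (-1.34 and -1.77). Of 12 genes of the DREAM and MuvB complexes, which hold mitotic genes silent or switch them on, 7 were lower under vehicle, Lin54 (-1.18), Mybl1 (-1.23), Lin9 (-1.01) and Rbl1 (-0.99) among them, and 4 lower and 1 higher under combo.

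Counts of some of the 49 may be affected by an overlapping neighbour. Exons of 9 of them overlap those of a gene on the other strand, and the libraries were made with a stranded kit, but whether the counting used strand is not given in the sources used here. The partner's counts came to 97.8% of those of Ncapg (Lcorl), 86.4% of Cdc20 (Elovl1), 61% of Cdca8 (9930104L06Rik), 53% of Nusap1 (Oip5), 10.1% of Ccna2 (Exosc9) and 8.19% of Prc1 (Rccd1). These shares use all counts of the partner, and reads in the shared exons were not counted apart. Without strand, reads in the shared exons cannot be told apart. How far the values of these genes are affected, and in which direction, was not measured. The named pseudogenes Ccnb1-ps and Ccnb2-ps had 82 and 80 counts over all 12 libraries.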

How the data were processed

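RNA of 12 bulk tumors was sequenced. Total RNA was prepared with a Direct-zol kit, depleted of ribosomal RNA and made into stranded Illumina libraries, per the labels' protocols. Per the submitters' processing notes the tools were FastQC, fastp, STAR and featureCounts, with GRCm38.p5 as the genome build. Tool versions, strand setting and annotation release are not given in the sources used here. Each deposited file lists genes with exon length and an unnormalized read count, per the file headers. Of 52636 identifiers, 52403 were matched to a symbol by GENCODE M21 and 233 were not.

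The 49 genes, the other lists and the tests were chosen with earlier results of these data known. The lists are described by counts and medians, without a test of the list. Groups came from the sample titles. Genes passing filterByExpr in edgeR 4.0.16 (17970 of 31622 with a count, at least 99.8% of the counts of each library) were scaled by TMM (factors 0.941 to 1.05) and fitted as 4 group means in 1 quasi-likelihood model (R 4.3.3; 8 residual degrees of freedom; biological coefficient of variation 0.221). Benjamini-Hochberg adjustment ran over all genes tested, with calls at 0.05, for 5 contrasts: P53ERTAM against EV under each treatment, combo against vehicle in each vector, and the interaction. The standard error is the log2 fold change divided by the square root of F. CPM are scaled by TMM, and TPM use the deposited lengths without TMM factors. The test was tried on simulated data. Alternatives were DESeq2 1.42.0 and its size factors, voom with quality weights (limma 3.58.1), no filter, protein-coding genes only, only the groups compared, a replicate block, each library left out, and a test against a fold of 1.5. Leaving out the EV combo libraries and removing a length trend were added after seeing the data.

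Genes named with values are 17 chosen for their roles (Foxm1, Mybl2, Mki67, Cdk1, Ccnb1, Aurkb, Bub1, Bub1b, Ndc80, Cenpe, Ncapd2, Smc2, Top2a, Anln, Prc1, Pttg1, Cdc20), up to 6 called members of smallest p per comparison and direction, the extremes of each step, and up to 4 called members of each other list. Some further members of the same complexes were named after their values were seen.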

Additional observations from a re-analysis of the deposited data

Results flagged for a closer look

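The effect of combo differed between the vectors for 10 of the 49 genes by edgeR's interaction term, and these are the results marked for a closer look. Over all genes tested, 17.2% were called lower and 18.8% higher for this term. The mitotic genes were thus not called more often than genes at large. The log2 differences, combo effect in P53ERTAM minus that in EV tumors, were -1.26 for Espl1, -0.82 for Ncapd2, -0.78 for Psrc1, -0.74 for Mybl2, -0.72 for Cenpa, -0.60 for Cenpe, -0.56 for Cenpf, -0.55 for Dlgap5 and -0.54 for Aspm. Ccnb2 differed in the other direction, at 0.69. All 10 rest in part on the EV combo libraries, which stand apart in the kinds of RNA they hold, and the part of that make-up in the differences was not tested.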

How the results depend on the processing

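No called value changed sign under the alternatives run. Calls kept in every alternative other than the test against a fold of 1.5 numbered 42 of 49 between the vectors under vehicle and 41 of 45 under combo, 7 of 13 for combo in EV, 1 of 5 for combo in P53ERTAM and 5 of 10 for the interaction. Against a fold of 1.5, edgeR called 28 lower under vehicle, 29 under combo, 0 higher and 0 lower for combo in EV, 0 lower for combo in P53ERTAM, and 0 higher and 1 lower for the interaction. With protein-coding genes only, combo in EV gave 4 higher and 7 lower and the interaction 0 higher. For combo in P53ERTAM, voom gave 22 lower and DESeq2 9, against 1887 and 1204 over all genes (536 in the main fit). The interaction gave 2 higher without the filter or with voom and 0 with the length trend removed, and the cause of these shifts was not tested.

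Leaving out 1 tumor gave 44 to 49 lower under vehicle, 41 to 45 under combo, 5 to 11 lower for combo in EV, 1 to 10 for combo in P53ERTAM, and 0 to 3 higher and 7 to 9 lower for the interaction. Over all genes, the same fits for combo in P53ERTAM called 14 to 1146 lower. An arm left with 2 tumors borrows its spread from the other groups. Same-numbered samples shared little of their deviations (correlations -0.0737 to 0.19, with no comparison above 0.1 in all 3). The highest were 0.117 and 0.19, for replicates 2 and 3 of combo against vehicle in P53ERTAM. Such correlations cannot exclude a pairing of the samples. With the replicate numbers as a block, 49 and 45 genes were called lower for the vectors, 2 higher and 11 lower for combo in EV, 5 lower for combo in P53ERTAM, and 2 higher and 9 lower for the interaction. With 3 tumors a group, a log2 difference that was not called is not shown to be absent.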

Other observations

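Among the genes on the p53 side of the same control, 3 of 6 inhibitors of G2 and mitotic entry were called higher in P53ERTAM than in EV tumors under vehicle. Under combo 4 were. Over all genes tested the shares called higher were 17.9% under vehicle and 22.1% under combo. Plk2 leaned the other way, with overlapping groups. It averaged 114 CPM in P53ERTAM vehicle, against 131 CPM in EV vehicle tumors, and 122 CPM in P53ERTAM combo, against 145 CPM in EV combo tumors. Gadd45a, which inhibits Cdk1, had log2 fold changes of 1.88 under vehicle and 1.41 under combo, and Plk3, a stress-activated polo kinase, 0.82 and 0.80. Sfn, the 14-3-3 sigma gene, was lower under vehicle (-0.78, edgeR adjusted p = 0.00411).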
